A study of Mus musculus with 6 samples.

Results

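Rab GTPases are small membrane-bound switches that direct vesicle traffic, and the 43 Rab genes described here are all rows of the deposited expression table whose symbol is Rab followed by 1 or 2 digits and at most 1 letter, out of 10539 genes listed. The table holds RNA sequencing of mouse alveolar macrophages from lung of strain C57BL/6, all of which overexpressed the transcription factor C/EBPβ. The group CEBPβ has 3 libraries of such cells. The group CEBPβ-A has 3 libraries of such cells after treatment with A20-Ad, an agent that the labels class as an Ad virus. A20 is the usual name of the ubiquitin-editing enzyme encoded by Tnfaip3. How C/EBPβ was overexpressed, which Ad virus the CEBPβ cells were given, and the age and number of the animals go unstated in the labels, and cells with normal C/EBPβ were not analysed here. Nothing in the labels ties replicates to different mice or dishes. The p-values therefore reflect library-to-library spread alone, and that spread may be technical.

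A Rab protein is loaded with GTP by an exchange factor (GEF), recruits effectors such as tethers and motors to a membrane, and is switched off by a GTPase-activating protein (GAP). A lipid tail added by prenylation holds it on the membrane, and GDP dissociation inhibitor (GDI) carries the inactive form back through the cytosol. In macrophages these switches time the path of swallowed particles: Rab5 marks the young phagosome, Rab7 the mature one that fuses with lysosomes, Rab11 and Rab35 return receptors to the surface, and Rab3 and Rab27 proteins act on secretory granules. Members were put into 6 classes from textbook knowledge: 7 of early endosomes, 7 of recycling, 9 of late endosomes and lysosomes, 8 of secretion, 9 of the ER and Golgi, and 3 others. Many Rab proteins act at more than 1 membrane, so the classes are a reading aid.

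Values are FPKM, fragments scaled by gene length and library total, as the authors deposited them, and the depth behind them is unknown. All 12 alveolar macrophage markers looked for were present, summing to 27180 to 36790 FPKM in CEBPβ and 29450 to 38660 in CEBPβ-A, with Siglecf, the sialic acid receptor of these cells, at 101 to 106 FPKM over the 6 libraries. Most of that sum is Lyz2, and the markers did not all stay level. Car4 (44.3 to 47.98 FPKM in CEBPβ, 54.1 to 76.05 in CEBPβ-A), Ear2 (671 to 772 and 862 to 1008), Pparg (37.0 to 38.3 and 40.1 to 42.5) and Cd68 (896 to 977 and 989 to 1026) were higher in CEBPβ-A with no overlap, and Itgax (505.5 to 517 and 451 to 489) was lower with no overlap. None of the T cell, B cell, NK cell or endothelial markers looked for was among the rows used here. Why a gene has no row is unstated, so a missing row gives no level. Of 3 monocyte markers only Ly6c2 had a row (0.364 to 0.654 FPKM in CEBPβ, 0.239 to 0.501 in CEBPβ-A). Of 3 fibroblast markers only Pdgfra had one (0.684 to 1.005 and 0.551 to 0.657), lower in CEBPβ-A with no overlap at this low level. S100a8, a calcium-binding protein of neutrophils and activated myeloid cells, stood at 199 to 251 FPKM in CEBPβ and 286 to 303 in CEBPβ-A. Summed neutrophil markers (2 of 5 listed) ran from 210 to 261 FPKM in CEBPβ and from 295 to 314 in CEBPβ-A, a sum that is almost all S100a8, while Csf3r, the other neutrophil marker listed, overlapped (9.85 to 11.6 and 8.66 to 10.9). Epithelial markers (2 of 7 listed) summed to between 28.4 and 38.6 FPKM in CEBPβ and between 32.9 and 65.6 in CEBPβ-A. The part of these markers in the Rab values was not tested. Tnfaip3 had no higher level in the libraries labelled CEBPβ-A (7.94, 15.5 and 7.32 FPKM, against 8.77, 17.7 and 19.2 in CEBPβ; log2 fold change −0.53, limma adjusted p = 0.606), so directions below are between libraries as labelled. Whether A20 RNA from the agent would be counted at the mouse gene is not known from the labels, so this value cannot check them. CEBPβ-A replicate 3 lay far out on principal component 1 (25.7, with 5 libraries between −11.7 and −0.10), and values without it are given beside a number of the results.

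No Rab gene passed the test for a difference between the groups. Of 43 members, 39 had a mean of at least 1 FPKM over the 6 libraries and were tested together with all 9617 genes that did. None passed (0 of 39, smallest limma adjusted p = 0.588), where 0.052% of all tested genes did (5 genes, 0.0208% higher and 0.0312% lower in CEBPβ-A). At an unadjusted p under 0.05, 2 members were higher in CEBPβ-A and 0 lower, 2 of 39 beside 8.18% of all tested genes (3.76% higher and 4.42% lower). The members' median log2 fold change, CEBPβ-A minus CEBPβ, was 0.03, beside −0.01 over all tested genes, and their median absolute log2 fold change was 0.09 beside 0.11. The libraries of the groups did not overlap for 8 members, 6 of them higher in CEBPβ-A (15.4% of 39, beside 7.89% of all tested genes) and 2 lower (5.13%, beside 8.86%). The 95% intervals say how large a change of FPKM + 1 could still be hidden: 34 of 39 lay within a 1.5-fold change either way. Those reaching past 1.5-fold were Rab5c, Rab1a, Rab2b, Rab7b and Rab3d, and that of Rab3d alone reached past 2-fold. For members of low level a change in FPKM itself could be larger than these bounds. Rab3a, for example, had a log2 fold change of 0.22, and of 0.37 with 0.1 added in place of 1.

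**Figure D1:**
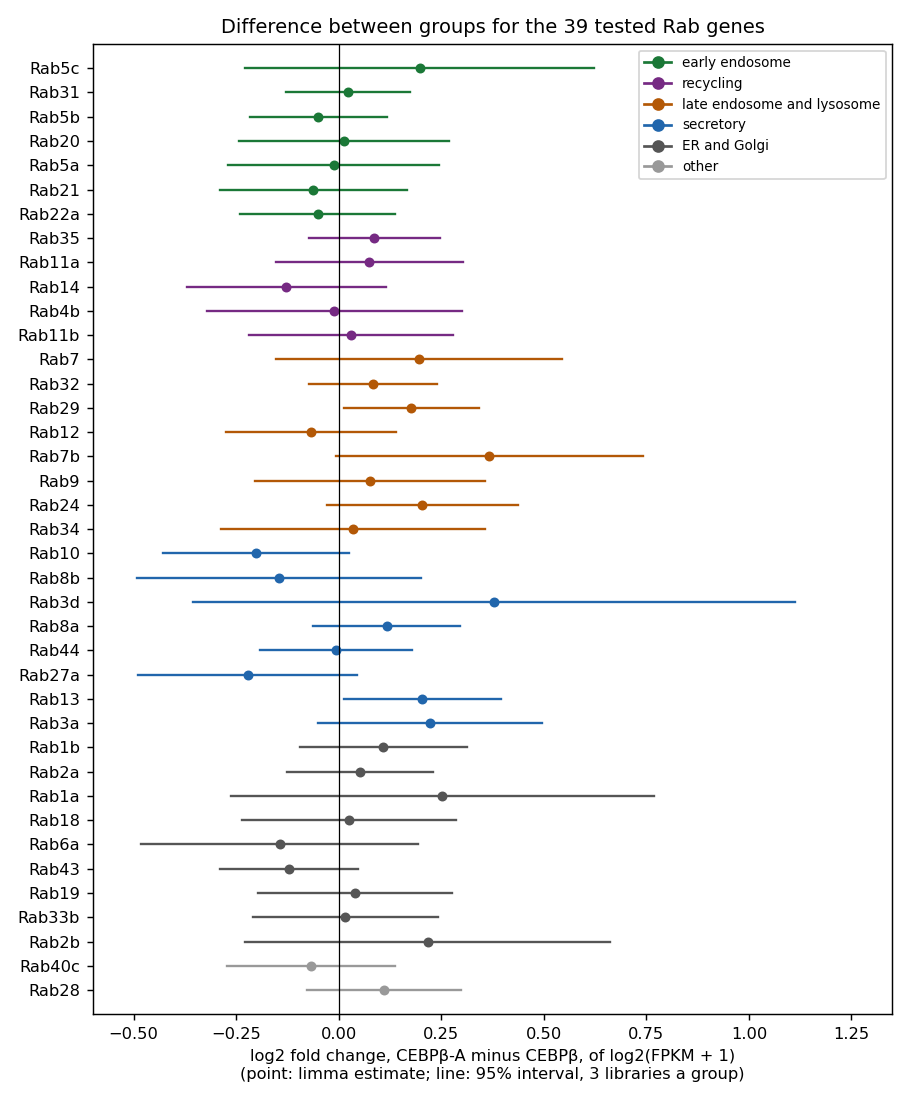
Log2 fold change, CEBPβ-A minus CEBPβ, on the log2(FPKM + 1) scale for the 39 tested Rab genes (points, limma estimates; lines, 95% intervals; 3 libraries a group; colour, class). Points lie between −0.22 (Rab27a) and 0.38 (Rab3d), and 37 of 39 lines cross 0, the exceptions being Rab29 and Rab13.

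As a transcript pool, Rab genes summed to 1245, 1297 and 1180 FPKM in CEBPβ replicates 1, 2 and 3 and to 1280, 1330 and 1293 in CEBPβ-A, so the groups overlapped. The sum over all genes also differed by library and was highest in CEBPβ-A replicate 3 (313215 FPKM). As a share of all FPKM the Rab pool was 0.4464%, 0.4644% and 0.4073% in CEBPβ and 0.4453%, 0.4615% and 0.4129% in CEBPβ-A. Rab7 and Rab1b led the Rab pool, at means of 128 and 124 FPKM over the 6 libraries. Their library ranges (113 to 174 and 113 to 140) overlapped, so their order is not separated. Rab5c (87.6), Rab32 (85.6), Rab2a (72.5), Rab10 (67.3), Rab1a (66.6), Rab31 (60.2) and Rab8b (57.0) followed as mean FPKM. At the other end stood Rab23, Rab4a, Rab38 and Rab15, at means of 0.565, 0.555, 0.460 and 0.298 FPKM, which were not tested. The early endosome class gave 20.6% to 23.6% of the Rab pool per library, the late endosome and lysosome class 23.2% to 28.7%, the ER and Golgi class 27.9% to 28.7%, the secretory class 14.04% to 17.7% and the recycling class 6.80% to 7.39%.

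**Figure D2:**
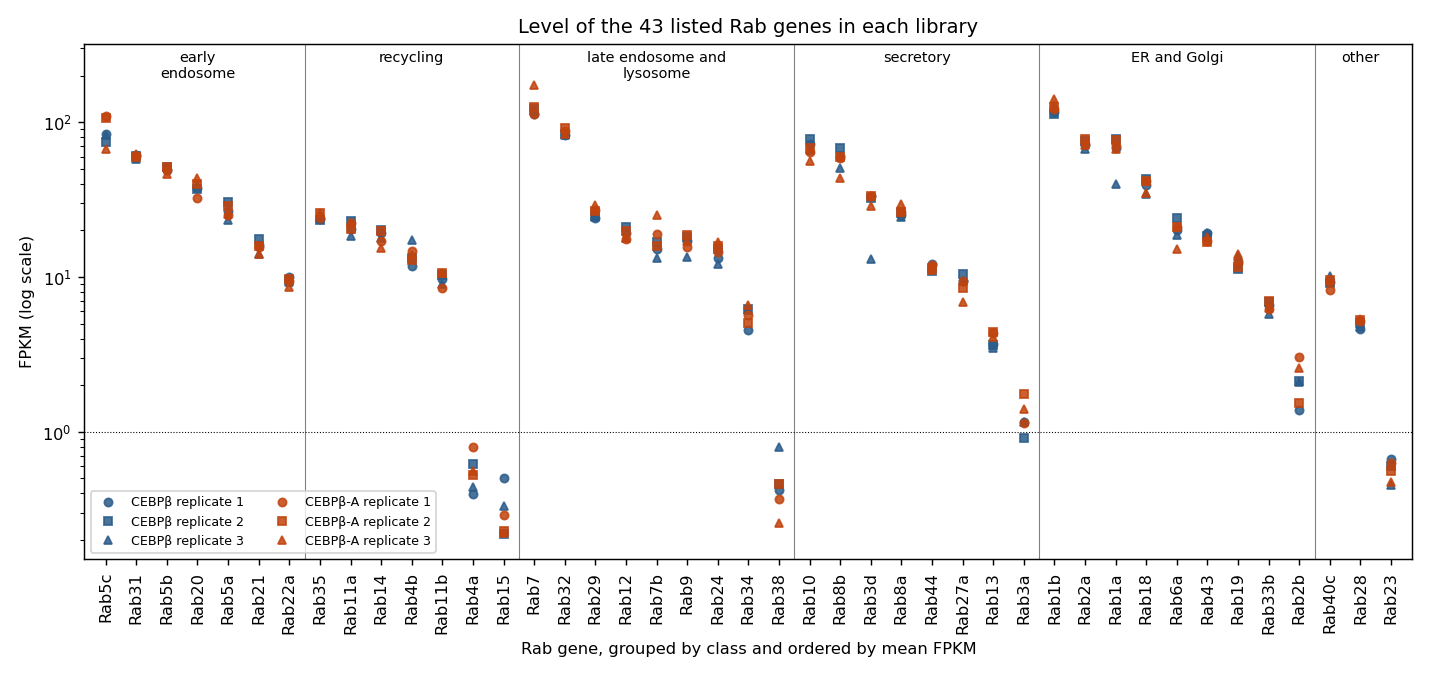
FPKM (log axis) of the 43 listed Rab genes in each of 6 libraries, grouped by class and ordered by mean (blue, CEBPβ; orange, CEBPβ-A; circle, square and triangle, replicates 1, 2 and 3; dotted line, 1 FPKM). Rab7 in CEBPβ-A replicate 3 (174 FPKM) and Rab3d and Rab1a in CEBPβ replicate 3 (13.0 and 39.9) stand away from the other libraries of the same gene.

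In several pairs of close relatives a single gene carried nearly all of the signal. Rab32, which serves lysosome-related organelles and phagosomes, gave 99.1% to 99.7% of the FPKM of the Rab32 and Rab38 pair in each library. Rab2a gave 96.0% to 98.1% of the Rab2 pair, Rab4b 94.8% to 97.5% of the Rab4 pair, Rab3d 91.8% to 97.3% of Rab3d plus Rab3a, and Rab7 85.7% to 89.9% of Rab7 plus Rab7b. Other pairs were less lopsided, with Rab8b at 59.6% to 72.5% of the Rab8 pair and Rab11a at 65.8% to 72.5% of the Rab11 pair. The Rab5 trio was shared more evenly: Rab5c held 50.9% ± 2.83 in CEBPβ and 55.0% ± 6.03 in CEBPβ-A (SD, n = 3 each), and Rab5a, the lowest, 13.7% to 19.6% over the 6 libraries. FPKM divides by length, which allows this comparison between genes, but how the authors divided reads that fit several relatives is unstated. Rab4b and Rab2b also share exon bases with other genes, as given below, so the shares of the Rab4 and Rab2 pairs are uncertain.

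Promoters were read for 37 of the 43 members (RefSeq, GRCm38.p6, the 250 bases before the transcription start nearest the listed gene start). They were rich in G and C, with a median of 62.0% (44.0% to 78.8%) beside 52.4% over 32851 mouse promoters, and held a median of 18 CpG steps beside 6. The 32851 were not limited to genes with a row here, while every member has a row. These contrasts, and those of the site shares that follow, are therefore not shown to be particular to Rab genes. The letters TTNNGCAA, a form of the C/EBP site, occurred on either strand in 2 of 37 (5.41%, beside 9.56% of all promoters), Rab1b and Rab29. The E-box CACGTG, the core of the lysosomal CLEAR element, occurred in 4 (10.8%, beside 6.02%), of which Rab5a, Rab20 and Rab21 are early endosome genes and Rab23 is not. The letters of an NF-κB site occurred in 0 of 37 (0.356% of all). A match is only a match of letters, no factor binding was measured, and every library carried overexpressed C/EBPβ. Rab29 and Rab13, the members with the smallest p, are printed with Rab20, an example of an E-box, all chosen after their values were seen. The matching letters are in capitals, Rab13 has none, and each sequence runs 5′ to 3′ on the gene's strand. Rab29 is read at chr1:131867027-131867276 (plus strand), Rab13 at chr3:90213465-90213714 (plus) and Rab20 at chr8:11478641-11478890 (minus).
Rab29: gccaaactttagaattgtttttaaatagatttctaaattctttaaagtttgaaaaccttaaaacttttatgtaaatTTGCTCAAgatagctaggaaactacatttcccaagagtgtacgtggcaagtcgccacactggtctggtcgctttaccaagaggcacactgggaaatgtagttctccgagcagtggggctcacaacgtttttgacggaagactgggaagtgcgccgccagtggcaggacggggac
Rab13: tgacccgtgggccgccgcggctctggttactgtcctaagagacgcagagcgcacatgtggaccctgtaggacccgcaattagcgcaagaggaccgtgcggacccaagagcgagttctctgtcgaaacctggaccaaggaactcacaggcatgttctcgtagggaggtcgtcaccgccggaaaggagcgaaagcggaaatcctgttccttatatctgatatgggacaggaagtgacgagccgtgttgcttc
Rab20: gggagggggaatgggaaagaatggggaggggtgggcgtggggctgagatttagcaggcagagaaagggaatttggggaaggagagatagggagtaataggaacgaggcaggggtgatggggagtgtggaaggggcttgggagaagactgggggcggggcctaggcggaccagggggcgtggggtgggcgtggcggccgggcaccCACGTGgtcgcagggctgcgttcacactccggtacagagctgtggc

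Early endosome members had a median log2 fold change of −0.01 (7 of 7 tested, 3 positive and 4 negative). With a library left out the median ran from −0.07 (without CEBPβ-A replicate 2) to 0.02 (without CEBPβ-A replicate 1). The groups were separated for 0 of 7, beside 16.8% of all tested genes. Rab5c, a Rab5 form that drives fusion of early endosomes and young phagosomes, stood at 84.3, 74.6 and 82.7 FPKM in CEBPβ replicates 1, 2 and 3 and at 110, 107 and 66.7 in CEBPβ-A. CEBPβ-A replicates 1 and 2 thus lay above all CEBPβ libraries and replicate 3 below them all. The log2 fold change was 0.20 (SE 0.18, limma adjusted p = 0.698), and 0.43 without CEBPβ-A replicate 3, still with no call (adjusted p = 0.289). Its relatives were steadier. Rab5b stood at 49.2, 51.2 and 51.6 FPKM in CEBPβ and 49.0, 51.6 and 46.2 in CEBPβ-A, and Rab5a at 26.5, 30.7 and 23.4 and 25.3, 28.8 and 25.4, with overlap in each case.

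Rab31, a Rab5 relative in traffic between the trans-Golgi and endosomes, had the smallest spread within groups of all tested members (SD 0.037 on the log2(FPKM + 1) scale, where the median member had 0.127 and the median tested gene 0.129). It stood at 57.7 to 61.3 FPKM in CEBPβ and 59.6 to 62.0 in CEBPβ-A. Its log2 fold change of 0.02 had a 95% interval from −0.13 to 0.17, the narrowest bound on any change in this class. Rab20, which is known from maturing macrophage phagosomes and has the E-box in its promoter, stood at 37.4, 37.3 and 39.3 FPKM in CEBPβ and 32.5, 39.6 and 43.7 in CEBPβ-A, so the CEBPβ-A libraries lay on either side of the others. Rab21, which binds integrins in transit, and Rab22a, which sorts cargo at early endosomes, had log2 fold changes of −0.06 and −0.05.

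Recycling members had a median log2 fold change of 0.03 (5 of 7 tested, 3 positive and 2 negative). With a library left out the median ran from −0.02 (without CEBPβ-A replicate 3) to 0.07 (without CEBPβ replicate 2). The groups were separated for 1 of 5, beside 16.8% of all tested genes. That member was Rab35, which returns cargo from endosomes to the plasma membrane. It stood at 23.9, 23.3 and 24.1 FPKM in CEBPβ and 24.2, 25.7 and 26.0 in CEBPβ-A, so the groups nearly touched. Its log2 fold change was 0.09 (SE 0.07, limma adjusted p = 0.653). Rab11a, the Rab of the recycling endosome, stood at 20.4, 23.2 and 18.3 FPKM in CEBPβ and 22.3, 20.5 and 22.2 in CEBPβ-A, with overlap (log2 fold change 0.07), and its relative Rab11b at 0.03. Rab14, which acts between the trans-Golgi and endosomes, stood at 19.3, 20.02 and 17.9 and 17.1, 19.9 and 15.4 FPKM (log2 fold change −0.13). That value was −0.0454 without CEBPβ-A replicate 3, −0.22 without CEBPβ-A replicate 2 and −0.19 with the length trend removed. Rab4b, of the fast recycling route, had a log2 fold change of −0.01, which turned to 0.13 without CEBPβ replicate 3. That library held 17.3 FPKM and the other 2 CEBPβ libraries 11.8 and 13.3. Exons of Rab4b share 1280 bases with a read-through gene on the same strand (Gm21983), so its level is uncertain. Rab4a and Rab15 stayed under 1 FPKM in all 6 libraries.

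Late endosome and lysosome members leaned upward in CEBPβ-A more than the other classes of at least 5 tested genes, although none passed. Of 8 tested, 7 had a positive log2 fold change (46.6% of all tested genes did) and the median was 0.13. It was 0.09 without CEBPβ-A replicate 3, 0.10 with the trend on transcript length removed, and 0.08 with no filter on low values, which adds Rab38. The class summed to 289, 308 and 290 FPKM in CEBPβ replicates 1, 2 and 3 and to 301, 319 and 371 in CEBPβ-A, so the groups overlapped (means 295.5 ± 11.2 and 330.4 ± 36.4, SD, n = 3 each). As a share of all FPKM it was 0.1035%, 0.1104% and 0.09992% in CEBPβ and 0.1047%, 0.1109% and 0.1185% in CEBPβ-A, also with overlap.

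The class total was moved most by Rab7, the switch that brings late endosomes and phagosomes to the lysosome. Rab7 stood at 113, 122 and 118 FPKM in CEBPβ and at 113, 125 and 174 in CEBPβ-A. A single library, CEBPβ-A replicate 3, was high, replicate 1 lay inside the CEBPβ range and replicate 2 just above it. Its log2 fold change was 0.20 (SE 0.15, limma adjusted p = 0.648), and 0.01 without that library. Rab7b, a relative expressed in myeloid cells that works between late endosomes and the trans-Golgi, stood at 15.05, 16.8 and 13.3 FPKM in CEBPβ and 18.9, 15.9 and 25.0 in CEBPβ-A. Its replicate 2 lay inside the CEBPβ range and its replicate 3 was highest. The log2 fold change was 0.37 (SE 0.16, 95% interval −0.01 to 0.74, limma adjusted p = 0.588), and 0.20 without CEBPβ-A replicate 3.

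Rab29, a Rab of the trans-Golgi and lysosome that recruits the kinase LRRK2 and whose promoter holds the C/EBP letters, was higher in CEBPβ-A in every library and had the smallest p-value of the family. It stood at 24.0, 24.7 and 24.2 FPKM in CEBPβ and 27.0, 26.6 and 29.2 in CEBPβ-A libraries. The groups did not overlap (log2 fold change 0.18, SE 0.07, unadjusted p = 0.0386, limma adjusted p = 0.588). The log2 fold change was 0.14 without CEBPβ-A replicate 3 and 0.11 with the length trend removed. The kinase gene Lrrk2 itself stood at 28.5, 27.5 and 25.5 FPKM in CEBPβ and 26.0, 22.1 and 17.1 in CEBPβ-A, with overlap (log2 fold change −0.32, limma adjusted p = 0.588). Rab32 was also higher in every CEBPβ-A library, by a small margin: 82.0, 84.0 and 83.2 FPKM against 88.1, 92.0 and 84.4 (log2 fold change 0.08, limma adjusted p = 0.655).

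Rab24, linked to autophagy, had a log2 fold change of 0.20 (limma adjusted p = 0.588), with 13.3, 15.1 and 12.1 FPKM in CEBPβ and 14.5, 15.8 and 16.7 in CEBPβ-A. Its exons share 1258 bases with Prelid1 on the opposite strand, and whether counting of these stranded libraries used strand is unstated, so its level is uncertain. Rab9, which returns cargo from late endosomes to the trans-Golgi, and Rab34, which positions lysosomes, had log2 fold changes of 0.08 and 0.03. Rab12, linked to transferrin receptor turnover and a substrate of LRRK2, was the negative member at −0.07. Rab38 was under 1 FPKM throughout, at 0.423, 0.463 and 0.792 in CEBPβ and 0.368, 0.459 and 0.257 in CEBPβ-A.

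**Figure D3:**
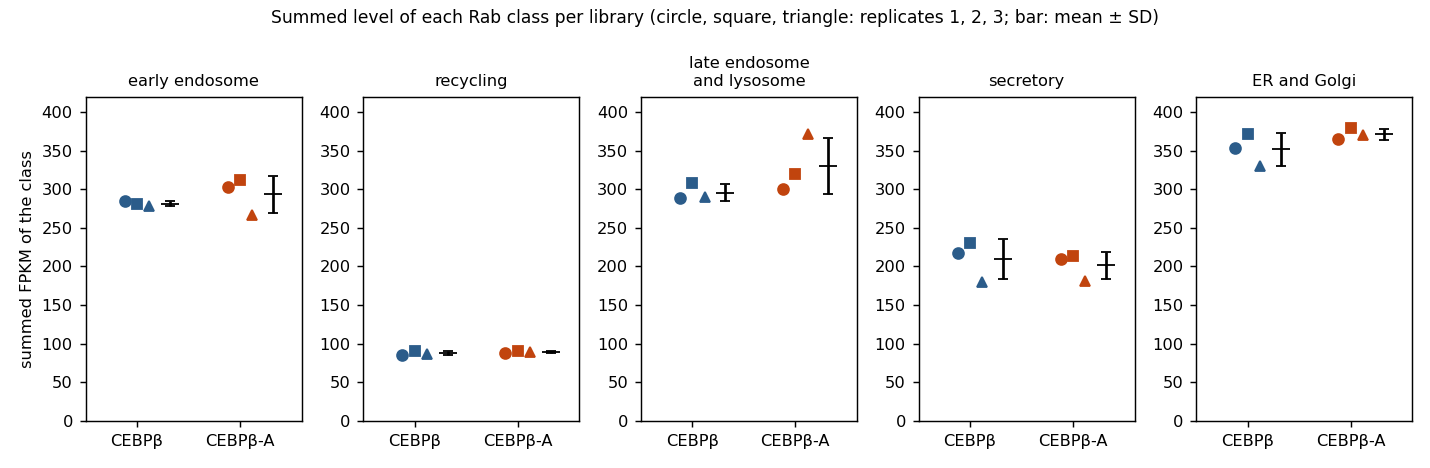
Summed FPKM of the 5 main Rab classes in each library (y axis from 0; circle, square and triangle, replicates 1, 2 and 3; bar, mean ± SD of 3 libraries). The late endosome and lysosome class reached 371 FPKM in CEBPβ-A replicate 3 against 301 and 319 in replicates 1 and 2, while the recycling class stayed between 85.8 and 90.8 FPKM in all 6 libraries.

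Secretory members differed among themselves, with 4 positive and 4 negative of 8 tested (median log2 fold change 0.06, which turned to −0.08 over the members with a mean of at least 5 FPKM and to −0.02 without CEBPβ replicate 3). The groups were separated for 3 of 8: Rab13 and Rab8a upward and Rab27a downward, beside 16.8% of all tested genes (7.89% upward and 8.86% downward). Rab13, a Rab8 relative of epithelial junctions and surface delivery, stood at 3.69, 3.62 and 3.49 FPKM in CEBPβ and 4.34, 4.43 and 4.12 in CEBPβ-A. All CEBPβ-A libraries lay above all CEBPβ libraries (log2 fold change 0.20, SE 0.08, unadjusted p = 0.0393, limma adjusted p = 0.588). Rab8a, which acts in delivery to the surface and on stressed lysosomes, stood at 25.1, 25.9 and 24.6 FPKM in CEBPβ and 26.4, 26.3 and 29.7 in CEBPβ-A (log2 fold change 0.12, limma adjusted p = 0.609). It was 0.23 with the length trend removed and 0.06 without CEBPβ-A replicate 3.

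Rab27a, which docks secretory granules and exosome-forming bodies at the plasma membrane, was lower in CEBPβ-A in every library. It stood at 9.37, 10.5 and 9.39 FPKM in CEBPβ and 9.36, 8.48 and 6.92 in CEBPβ-A, so the groups nearly touched at 9.37 and 9.36. The log2 fold change was −0.22 (SE 0.12, limma adjusted p = 0.589), and −0.11 without CEBPβ-A replicate 3. The separation was lost under upper-quartile scaling, median-of-ratios scaling and removal of the length trend. Exons of Rab27a share 149 bases with Gm27186, a processed pseudogene on the same strand, so its level is uncertain. Rab10, which carries vesicles to the plasma membrane and Toll-like receptor 4 to the macrophage surface, stood at 72.6, 77.3 and 66.1 FPKM in CEBPβ and 64.0, 67.9 and 55.8 in CEBPβ-A. CEBPβ-A replicate 2 lay within the CEBPβ range and the other 2 below it (log2 fold change −0.20, SE 0.10, limma adjusted p = 0.588; −0.12 without CEBPβ-A replicate 3 and −0.13 with the length trend removed). Rab8b, the partner of Rab8a, stood at 60.2, 68.5 and 50.9 FPKM and 58.9, 59.7 and 43.9 (log2 fold change −0.15). Without CEBPβ-A replicate 3 its log2 fold change was −0.0036.

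Rab3d, a Rab of regulated granule release, had the largest log2 fold change of the family, and a single library set it. It stood at 33.1, 32.4 and 13.0 FPKM in CEBPβ and 33.6, 33.1 and 28.7 in CEBPβ-A. CEBPβ replicate 3 was the low library, and with it Rab3d had the widest spread within groups (SD 0.524 on the log2 scale). Its log2 fold change was 0.38 (SE 0.32, limma adjusted p = 0.669), and −0.04 without that library. Rab3a, known from synaptic vesicles, lay close to 1 FPKM (1.16, 0.906 and 1.16 in CEBPβ and 1.14, 1.75 and 1.41 in CEBPβ-A). Rab44, a large Rab of granulocytes and mast cells, stood at 10.9 to 12.05 FPKM in CEBPβ and 11.03 to 12.02 in CEBPβ-A.

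ER and Golgi members had a median log2 fold change of 0.04 (9 of 9 tested, 7 positive), which ran from −0.03 (without CEBPβ replicate 3) to 0.07 (without CEBPβ replicate 2) with a library left out. Rab1a, which with Rab1b carries vesicles from the ER to the Golgi, showed the same low library as Rab3d: 68.0, 77.8 and 39.9 FPKM in CEBPβ against 69.9, 76.9 and 67.0 in CEBPβ-A. Its log2 fold change was 0.25 (SE 0.22, limma adjusted p = 0.687), and −0.03 without CEBPβ replicate 3. Rab1b in the same libraries stood at 116, 113 and 129 and 122, 125 and 140 FPKM, and was not low in CEBPβ replicate 3. Rab1b thus made up 76.4% of the Rab1 pair in that library and 59.2% to 67.7% in the others. Rab43, a Golgi Rab, was lower in each CEBPβ-A library, at 19.3, 18.3 and 19.2 FPKM against 17.0, 16.9 and 18.2 (log2 fold change −0.12, limma adjusted p = 0.599). Its exons share 4164 bases with Gm45140 on the same strand, so its level is uncertain, and its log2 fold change was −0.02 with the length trend removed. Its separation was lost there and under upper-quartile and median-of-ratios scaling.

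The other members of this class were Rab2a, which acts between the Golgi and late endosomes (log2 fold change 0.05), Rab18 of the ER and lipid droplets (0.03), Rab6a of Golgi exit (−0.14), Rab19 (0.04), Rab33b, linked to autophagosome formation (0.02), and Rab2b (0.22, at a mean of 2.13 FPKM). None had separated groups. Rab6a stood at 20.2, 24.1 and 18.7 FPKM in CEBPβ and 20.9, 20.9 and 15.2 in CEBPβ-A, and its log2 fold change was 0.0022 without CEBPβ-A replicate 3. Its exons share 708 bases with Mrpl48 on the opposite strand. Exons of Rab2b share 2469 bases with Gm43766 and 195 with Tox4, both on the opposite strand, so its level is uncertain, and its log2 fold change ran from 0.0775 (without CEBPβ-A replicate 1) to 0.41 (without CEBPβ-A replicate 2) with a library left out. In all, 17 of the 43 members share exon bases with another gene. Of the 3 other genes, Rab28 had separated groups, at 4.64, 5.03 and 4.73 FPKM against 5.19, 5.28 and 5.33 (log2 fold change 0.11, limma adjusted p = 0.631), and Rab40c, a Rab that serves as a ubiquitin ligase subunit, had −0.07.

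**Figure D4:**
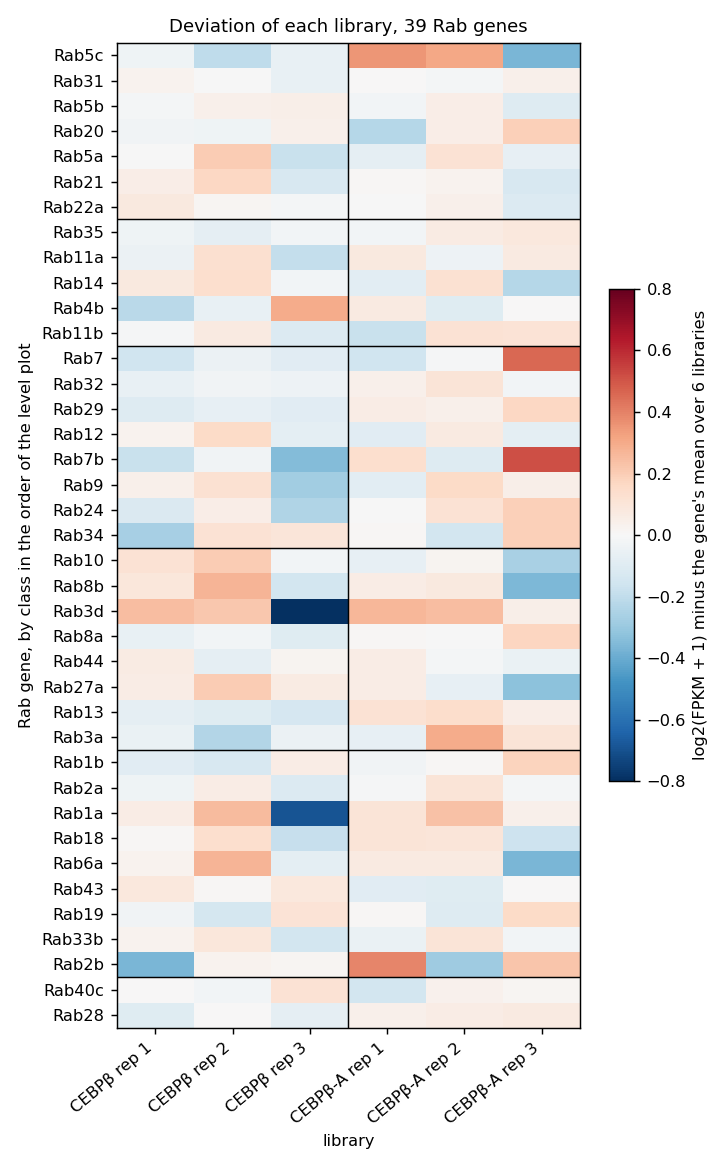
Deviation of each library from the gene's mean over 6 libraries, in log2(FPKM + 1), for the 39 tested Rab genes (colour scale −0.8 to 0.8, past which colours do not deepen; vertical line, boundary between groups; horizontal lines, classes). The deepest blue cells are Rab3d and Rab1a in CEBPβ replicate 3 and the deepest red are Rab7b and Rab7 in CEBPβ-A replicate 3.

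Single libraries set several of the extremes. CEBPβ replicate 3 was the lowest library for 14 of 39 tested Rab genes (35.9%, beside 18.0% of all tested genes), and CEBPβ-A replicate 3 was the highest for 12 (30.8%, beside 25.4%) and the lowest for 8 (20.5%, beside 35.8%). These shares are a description of 6 libraries, with no test. Without CEBPβ replicate 3 the median log2 fold change of the family was −0.0011, without CEBPβ-A replicate 3 it was 0.02, without CEBPβ-A replicate 1 it was 0.05 and without CEBPβ replicate 2 it was 0.07.

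Transcript length ran along with the differences. Across the 39 tested Rab genes, log2 fold change and the median length of a gene's coding transcripts (GENCODE M21) had a Spearman rho of −0.41, and −0.26 without CEBPβ-A replicate 3. Over the 9570 tested genes with a length, the same values were −0.43 and −0.26. Genes of the same libraries are not independent replicates, and the points share those libraries. Members of the late endosome and lysosome class were short (median 1186.5 bases) and those of the secretory class long (2669), beside 2087.5 over all tested genes. The order of class medians did not follow length throughout. Recycling members were as short (1192) with a median log2 fold change of 0.03, and the long secretory members had 0.06. The part of length in the differences was not tested beyond removing its trend. The 3 members with the most negative values then moved toward 0, Rab27a to −0.17, Rab10 to −0.13 and Rab8b to −0.03. Rab29 (0.11) and Rab13 (0.15) did so from above. Other members moved away from 0, among them Rab8a (0.23), Rab14 (−0.19), Rab35 (0.13) and Rab1a (0.28).

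**Figure D5:**
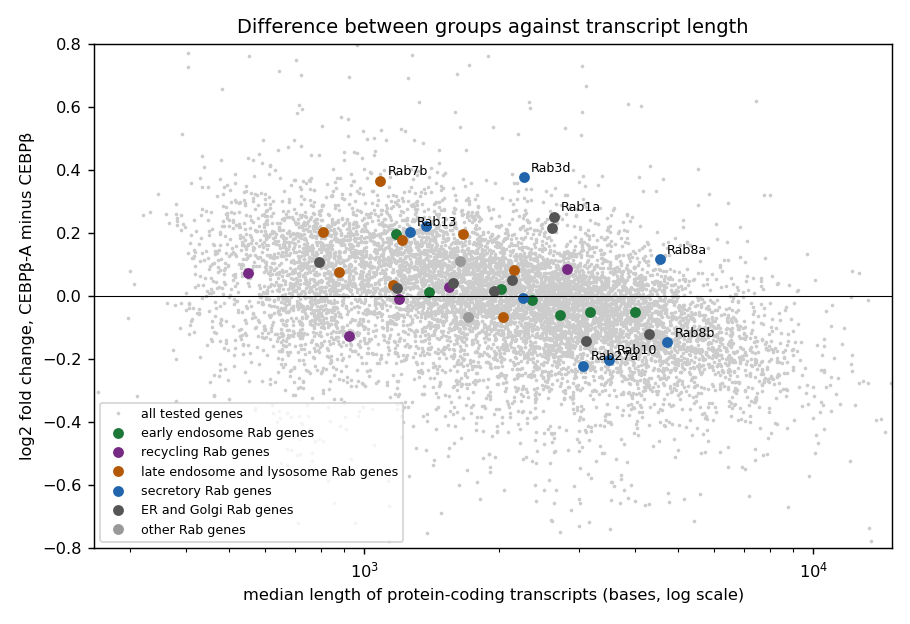
Log2 fold change, CEBPβ-A minus CEBPβ, against the median length of protein-coding transcripts (log axis) for all tested genes (grey) and the tested Rab genes (coloured by class). The y axis covers −0.8 to 0.8 and 43 grey genes lie outside the plot. Rab10, Rab27a and Rab8b lie among the long transcripts below 0, while Rab8a is as long and lies above 0.

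The partners that run the Rab cycle gave no call either: 0 of 133 tested partner genes passed (smallest limma adjusted p = 0.588), and 8 had an unadjusted p under 0.05, 2 of them higher and 6 lower in CEBPβ-A, beside 8.18% of all tested genes (3.76% higher and 4.42% lower). Of the genes for prenylation and the GDI cycle, 8 of 9 were tested and the median log2 fold change was 0.05. Icmt, which methylates prenylated proteins, stood at 6.85, 9.69 and 9.05 FPKM in CEBPβ and 5.12, 4.95 and 7.02 in CEBPβ-A (log2 fold change −0.51, SE 0.16, limma adjusted p = 0.588), with overlap through CEBPβ replicate 1. Rabac1, a prenylated Rab acceptor, stood at 27.4, 28.0 and 26.9 FPKM against 30.4, 30.2 and 39.5 (0.27), with no overlap. Gdi2, the main GDI here, stood at 34.9 to 35.2 FPKM and 34.0 to 39.4.

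Exchange factors had 11 positive and 25 negative of 36 tested (median −0.07). Of all 9617 tested genes, 5137 were negative, which is the background for the sign counts of this list and those below. Trappc1, a subunit of the TRAPP complexes that load Rab1, was higher in each CEBPβ-A library (24.0, 23.5 and 24.0 against 25.2, 28.6 and 27.8 FPKM, log2 fold change 0.18). Mon1b, part of the exchange factor of Rab7, was lower in each (7.53, 7.55 and 7.19 against 6.79, 6.49 and 5.70 FPKM, −0.20). Rin3, an exchange factor of the Rab5 family, had 0.31, with overlap. The median was −0.01 without CEBPβ-A replicate 3 and turned to 0.04 with the length trend removed.

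GAPs had 25 negative of 28 tested (median log2 fold change −0.08), 4 of them with separated groups (14.3%, beside 8.86% of all tested genes downward). Tbc1d9 stood at 30.6, 28.2 and 29.2 FPKM in CEBPβ and 26.2, 25.2 and 19.4 in CEBPβ-A (log2 fold change −0.31, SE 0.12, limma adjusted p = 0.588). Tbc1d4, the GAP known for acting on Rab10 and Rab8a, stood at 3.59, 3.99 and 3.68 against 3.34, 3.03 and 2.35 (−0.29), and Tbc1d9b at 20.7, 21.5 and 22.9 against 18.6, 20.1 and 19.8 (−0.15). The GAP transcripts had a median length of 3595 bases, and the median log2 fold change of the list was −0.02 with the length trend removed and −0.04 without CEBPβ-A replicate 3.

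Effectors of early endosomes and recycling had 19 negative of 23 tested (median −0.08). Rab11fip1, which links Rab11 to recycling vesicles, stood at 10.3, 9.36 and 9.27 FPKM in CEBPβ and 8.25, 7.62 and 6.08 in CEBPβ-A (log2 fold change −0.36, SE 0.12, limma adjusted p = 0.588). Rab11fip4 (−0.31) also had separated groups, and Eea1, the tether of Rab5 endosomes, stood at 13.5, 13.5 and 10.5 against 11.2, 10.9 and 8.44 FPKM (−0.27), with overlap. Effectors and tethers of late endosomes had 14 negative of 23 tested (median −0.03, which turned to 0.0068 with the length trend removed), and secretory and exocyst effectors 12 negative of 15 (median −0.11, −0.04 with the length trend removed). Exoc8, an exocyst subunit, stood at 7.96, 6.94 and 6.77 against 6.09, 6.31 and 5.51 FPKM (−0.24). Unc13d, the Rab27a effector that primes granules, stood at 1.67, 1.72 and 2.12 against 1.6, 1.496 and 1.11 (−0.24), and both had separated groups. Without CEBPβ-A replicate 3 the medians of these 3 effector lists were −0.04, −0.02 and −0.04.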

How the data were processed

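The authors deposited 1 table of FPKM with 10539 genes and columns for 6 libraries, of total RNA per the file headers. Its header announces 9 columns of FPKM, while the columns of samples not in the labels numbered 0. Why these differ is unstated, and so is whether other samples shaped the list of genes. A stranded kit was used, per the labels' protocols. Coordinates follow GRCm38, as the submitters' processing notes state. Aligner, quantifier and annotation release were not given in the sources used here. Depth is unknown: FPKM times length of 400 low genes showed no whole-read steps (highest periodicity 0.165, where 1 would be perfect), so no counting interval is given.

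Genes with a mean of at least 1 FPKM (9617) were tested on log2(FPKM + 1), which understates changes of low genes, with limma 3.58.1 (R 4.3.3), an intensity trend and no covariate, CEBPβ-A minus CEBPβ. Two-sided p-values were adjusted by Benjamini and Hochberg's method over all tested genes, with a threshold of 0.05. The procedure was tested on simulated data, with changes larger than any Rab difference here. That test therefore does not show whether differences of the size seen for Rab genes would be found. Exon overlaps and lengths came from GENCODE M21 (GRCm38) and promoters from RefSeq GRCm38.p6.

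The members, classes and partner lists were chosen with earlier results of these data known. The rule named members past the threshold, in each class the member of highest mean and the 3 of smallest p, and those with separated groups, and in each partner list up to 3 genes of smallest p. The remaining members are given for completeness, and Gdi2 was chosen after its values were seen. Alternatives covered pseudocount, filter, scaling, variance prior, replicate block, transcript length and each library left out.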

Additional observations from a re-analysis of the deposited data

How the results depend on the processing

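No Rab gene passed the threshold under any of 17 alternatives (0 of the tested members in each, smallest limma adjusted p = 0.289, Rab5c without CEBPβ-A replicate 3), and 21 members kept the sign of their log2 fold change in every alternative that tested them while 18 changed it in at least 1. Rab13, Rab2b and Rab3a were tested in 16 of the 17, since their means are under 5 FPKM. The deposited unit carries no depth, so small changes of low genes could not be bounded by counting error. Where a value below moved, the cause was not tested, other than that a stricter filter tests fewer genes and a left-out library leaves fewer samples.

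Of all tested genes, 5 passed, against 0 with a mean of at least 5 FPKM, 2 after quantile normalization and 1 to 9 with a library left out. Members higher with no overlap numbered 6, against 3 after quantile normalization and 6 to 11 with a library left out. Members lower with no overlap numbered 2, against 0 under upper-quartile scaling, median-of-ratios scaling and removal of the length trend, and 2 to 5 with a library left out. The share over all tested genes was not taken under these settings. Groups of fewer libraries separate more easily, so the higher counts with a library left out are not a result about Rab genes.

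Replicate numbers were not taken as pairs: deviations of same-numbered libraries correlated at 0.099, 0.247 and 0.259. Each library correlated best with its own number, though CEBPβ-A replicate 1 did so at 0.099 beside 0.087 with CEBPβ replicate 2. With 3 libraries a group these values cannot decide whether the numbers are pairs. With the replicate block 1 of all tested genes passed and 0 Rab genes did.

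Median log2 fold changes moved as follows. For prenylation and the GDI cycle it was 0.0311 with no filter, 0.0648 under median-of-ratios scaling, 0.0819 with the length trend removed and 0.0349 to 0.0569 with a library left out. With the length trend removed it was 0.0356 for exchange factors, −0.0237 for GAPs, −0.0211 for effectors of early endosomes and recycling and 0.0068 for those of late endosomes. Secretory Rab genes had −0.0763 with a mean of at least 5 FPKM and −0.0209 to 0.0691 with a library left out. Late endosome and lysosome Rab genes had 0.0836 with no filter. The left-out ranges were −0.073 to 0.0193 for early endosome Rab genes, −0.12 to −0.0443 for GAPs, −0.0315 to 0.07 for ER and Golgi Rab genes, −0.0875 to −0.0094 for exchange factors and −0.0757 to −0.0189 for effectors of late endosomes.

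The sign of some members' log2 fold changes turned. Median-of-ratios scaling gave Rab5a 0.0038, Rab4b 0.0052 and Rab44 0.0087. Quantile normalization gave Rab20 −0.0262, Rab4b 0.0097, Rab31 −0.0158, Rab44 0.0162 and Rab18 −0.0078. Removing the length trend gave Rab5b 0.0036, Rab34 −0.0292, Rab5a 0.0067, Rab22a 0.0355, Rab20 −0.0367, Rab44 0.0072, Rab18 −0.0381 and Rab11b −0.0063. With a library left out the ranges that crossed 0 were Rab5a −0.10 to 0.0843, Rab20 −0.0808 to 0.13, Rab21 −0.14 to 0.0057, Rab31 −0.0011 to 0.0419, Rab11a −0.0034 to 0.16, Rab11b −0.0209 to 0.13, Rab4b −0.12 to 0.13, Rab9 −0.0424 to 0.16, Rab34 −0.0903 to 0.12, Rab3d −0.0437 to 0.60, Rab44 −0.0452 to 0.0227, Rab1a −0.0315 to 0.44, Rab6a −0.22 to 0.0022, Rab18 −0.0613 to 0.11, Rab19 −0.026 to 0.11 and Rab33b −0.0518 to 0.0649.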
